A study of Mus musculus with 18 samples.

Results

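Fatty acid oxidation was followed in mouse liver through 42 genes, which are enzymes and carriers of mitochondrial and peroxisomal fatty acid breakdown together with targets of the nuclear receptor PPARα that lie close to that pathway. They were chosen by name, from what the genes are known to do, out of 21153 genes with a named probe on the array. Earlier results of these data were known when they were chosen. All 42 had a probe that entered the test, as did 19608 genes of the array, and their brightest probes lay well above background on all 18 arrays. By the place of their products, 22 are mitochondrial, 12 peroxisomal, 4 belong to both organelles, 2 are cytosolic and 2 sit at the cell surface.

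Liver RNA came from 18 male C57BL/6 mice, with 1 one-colour Agilent array per mouse. The mice went onto a low fat diet (LFD, 10%) or a high fat diet (HFD, 60%) when 6 weeks old. After 10 weeks of feeding, part of each diet group received 5 intraperitoneal rounds of methotrexate at 50 mg/kg (MTX50), an antifolate used against cancer and inflammatory disease, and their livers were taken 1 week after the last round. Each diet is thus represented by 4 untreated livers (LFD or HFD) and 5 treated livers (LFD MTX50 or HFD MTX50). Whether the mice had been fasted, and at what hour the livers were taken, are not given in the sources used here.

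In the liver, long-chain fatty acids enter mitochondria as carnitine esters and are shortened there by a cycle of dehydrogenation, hydration, a second dehydrogenation and thiolysis, whose electrons reach the respiratory chain through the electron transfer flavoprotein. Peroxisomes shorten very long and branched chains with their own set of enzymes and hand the products on. PPARα binds fatty acids, pairs with the retinoid X receptor on a direct repeat of the nuclear receptor half-site known as DR1, and in fasting raises most of the genes of both organelles.

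A level here is the log2 intensity of a probe minus the 75th percentile of its array, so that 0 is the 75th percentile, 1 unit is 2-fold, and levels of different genes are not comparable. A gene is read on its brightest probe. Errors are SE of limma's fit or SD over mice, and a gene is said to have risen or fallen where the Benjamini-Hochberg adjusted p of limma, taken over all 35746 probes tested, was below 0.05. Nothing in the labels says more about the mice than that they are separate samples, and the p-values measure the spread between them.

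On each array 83.9 to 90.6% of the probes passed as well above background, and the mean correlation with the other arrays of the same group was 0.979 to 0.993. HFD MTX50 mouse 5 stood apart from its group in these genes. The arrays sit on 6 slides. None of the LFD arrays shares a slide with another group, so that slide and group cannot be told apart wherever LFD is compared, whereas HFD mice 3 and 4 were run on the same slide as mice 1 and 2 of HFD MTX50. The hepatocyte markers Alb, Ttr, Apoa1, Serpina1a and Tat were all above background, and their summed intensity was 605 to 992 times the 75th percentile over all livers, which fits the labelled tissue.

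Sequence before the start site is shown for the members on which the results turn, from RefSeq on GRCm38.p6, each as the 250 bases before the start and read along the gene. Acot12 is the member that rose under MTX50, Etfa, Acaa1b, Nudt7 and Hadhb are members that fell, and the capitals mark the best match to the DR1 letters AGGTCANAGGTCA on either strand with at most 2 mismatches.
Acot12 (chr13:91741271-91741520, plus strand): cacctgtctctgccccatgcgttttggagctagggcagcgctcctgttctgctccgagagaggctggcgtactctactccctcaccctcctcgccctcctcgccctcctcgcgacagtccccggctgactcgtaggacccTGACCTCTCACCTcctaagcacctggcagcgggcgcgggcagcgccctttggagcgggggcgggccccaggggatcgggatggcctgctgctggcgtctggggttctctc
Etfa (chr9:55512244-55512493, minus strand): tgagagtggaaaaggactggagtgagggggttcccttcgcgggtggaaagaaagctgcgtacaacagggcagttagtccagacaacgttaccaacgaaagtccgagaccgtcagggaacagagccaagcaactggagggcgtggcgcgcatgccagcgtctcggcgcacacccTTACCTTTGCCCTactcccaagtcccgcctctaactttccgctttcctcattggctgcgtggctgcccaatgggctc
Acaa1b (chr9:119157094-119157343, minus strand): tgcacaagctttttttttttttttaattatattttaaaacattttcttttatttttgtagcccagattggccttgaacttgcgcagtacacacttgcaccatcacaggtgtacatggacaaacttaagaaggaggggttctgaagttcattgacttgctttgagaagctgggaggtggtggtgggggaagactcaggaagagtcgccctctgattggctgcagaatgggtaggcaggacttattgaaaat
Nudt7 (chr8:114133368-114133617, plus strand): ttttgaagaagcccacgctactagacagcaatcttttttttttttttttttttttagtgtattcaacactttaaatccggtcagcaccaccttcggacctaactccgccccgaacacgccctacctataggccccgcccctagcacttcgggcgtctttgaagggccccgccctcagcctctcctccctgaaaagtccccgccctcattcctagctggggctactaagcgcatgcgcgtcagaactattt
Hadhb (chr5:30155003-30155252, plus strand): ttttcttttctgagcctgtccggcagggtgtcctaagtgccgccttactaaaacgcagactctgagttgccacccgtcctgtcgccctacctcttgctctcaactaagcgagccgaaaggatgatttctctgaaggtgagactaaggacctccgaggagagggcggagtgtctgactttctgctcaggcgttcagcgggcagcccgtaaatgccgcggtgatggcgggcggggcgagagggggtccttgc

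Of the 42 members, 36 have an entry in the promoter table, which covers 250 bases before and 50 after the start. A DR1 match with at most 2 mismatches lay in 6 of these (16.7%), namely Acot12, Etfa, Slc25a20, Echs1, Acox2 and Acot4, against 1190 of 27025 genes in the table (4.4%). With at most 1 mismatch it lay in Acot12 alone (2.78%), at position -110 from the start, against 0.644% of all genes, and no member held the exact letters. Acaa1b and Nudt7, whose falls were the deepest, hold no match in this window. Hadha and Hadhb, which encode the alpha and beta subunits of the mitochondrial trifunctional protein, start 272 bases apart on opposite strands, so the sequence printed for Hadhb is also that before Hadha, and 228 bases of their windows are shared. A match is a description of these letters, and the window leaves out enhancers and introns.

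The first comparison asks what the high fat diet alone did to these genes. HFD livers held more Cpt1a, Cpt1b and Hadh RNA and less Etfa RNA than LFD livers, and 38 members did not pass the test. With 3 of 42 higher (7.14%) and 1 lower (2.38%), the members stood below the whole array, where 18% of genes were higher and 10.4% lower. The median difference over the members was 0.0145, against 0.0802 over all genes. Adipocyte markers moved with the diet: 3 of 5 rose, namely Cfd 63.8-fold, Lep 4.92-fold and Plin1 1.56-fold, where 18% of all genes were higher. The sum of Adipoq, Plin1, Lep, Retn and Cfd was 0.362 to 0.526 times the 75th percentile in LFD and 4.16 to 6.68 in HFD. Their part in the diet results was not tested.

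Cpt1a, the liver isoform of the carnitine palmitoyltransferase that commits fatty acids to mitochondrial import, lay at 2.63, 3.05, 2.66 and 2.12 in LFD and at 3.33, 3.35, 2.99 and 3.20 in HFD. It rose by 0.60 ± 0.20 (SE, adjusted p = 0.0373), or 1.52-fold, with LFD mouse 2 inside the HFD range. Its dimmer probe gave 0.63 (adjusted p = 0.0251). Cpt1b, the muscle isoform, is dim in liver and lay between -3.23 and -3.02 in LFD and between -2.98 and -2.52 in HFD, without overlap, a rise of 0.44 ± 0.16 (SE, adjusted p = 0.0469). Its second probe gave 0.46 (adjusted p = 0.114). The 5 skeletal muscle markers Ckm, Acta1, Mylpf, Tnnt3 and Myh1 had summed intensities of 0.247 to 0.276 times the 75th percentile in LFD and 0.312 to 0.437 in HFD. Their part in the Cpt1b result was not tested.

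Hadh, the hydroxyacyl-CoA dehydrogenase of the mitochondrial matrix, lay at 3.57, 3.60, 3.57 and 3.46 in LFD and at 3.82, 4.11, 3.84 and 3.89 in HFD. Every HFD liver was above every LFD liver, by 0.36 ± 0.11 on average (SE, adjusted p = 0.0215). Etfa, the alpha subunit of the electron transfer flavoprotein, moved the other way, from 3.69, 3.73, 3.74 and 3.81 in LFD to 3.45, 3.32, 3.33 and 3.27 in HFD, again without overlap. It fell by 0.40 ± 0.12 (SE, adjusted p = 0.0234), and its dimmer probe gave -0.20 (adjusted p = 0.286).

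**Figure D1:**
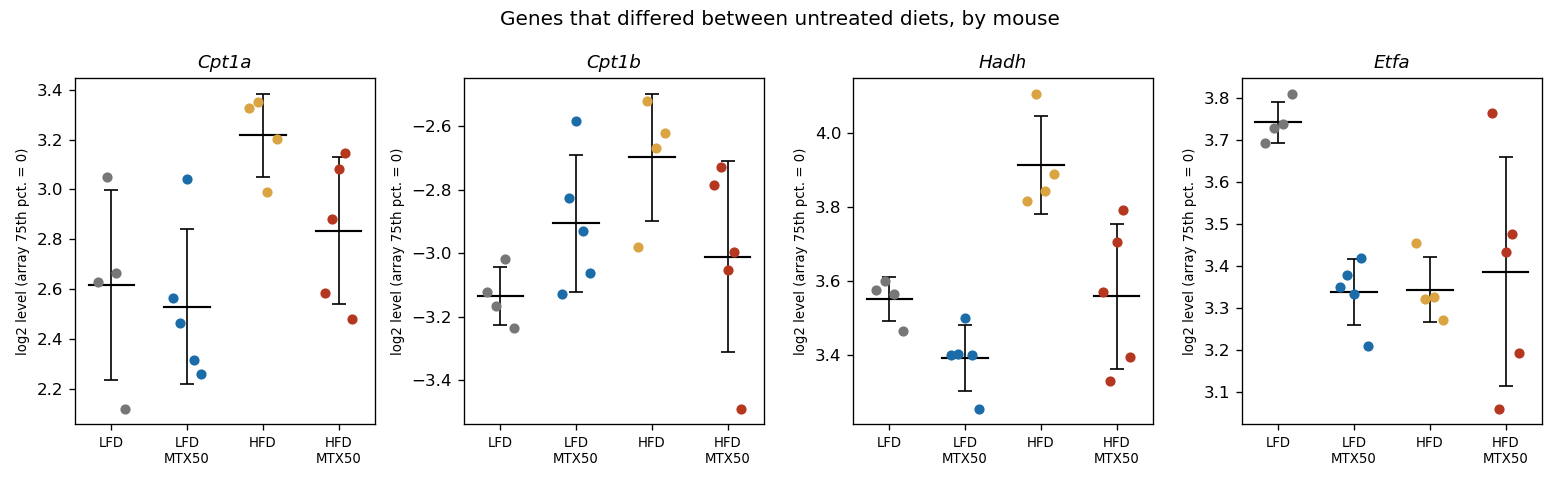
Level of Cpt1a, Cpt1b, Hadh and Etfa in each liver, as log2 intensity with the array's 75th percentile at 0, in the 4 groups, where points are mice, long bars are group means and whiskers are ± 1 SD. For Cpt1b, Hadh and Etfa the 4 HFD livers do not overlap the 4 LFD livers, and for Etfa the 5 LFD MTX50 livers lie below the LFD livers as well.

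Some larger differences between the diets did not pass. Vnn1, a pantetheinase of the cell surface and a well-known PPARα target, was at -0.78 to 0.38 in LFD and at 0.79 to 1.14 in HFD, a difference of 1.15 (adjusted p = 0.0687). Pex11a, which takes part in peroxisome division, was 0.80 apart (adjusted p = 0.0578), with 2.32 to 2.96 in LFD and 3.27 to 3.65 in HFD. Ech1, a dienoyl-CoA isomerase of both organelles, was 0.59 apart (adjusted p = 0.0932). At the other end, Pdk4, the kinase that shuts pyruvate dehydrogenase when fat is burned, had a difference of -0.89 (adjusted p = 0.15), and its LFD livers ranged from -1.95 to 0.07, the widest spread of any member in that group (SD 0.90). In all, 13 members (31%) had LFD and HFD livers that did not overlap, a smaller share than the 40.3% of all genes.

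The diet count was fragile. It was 2 without LFD mouse 1 or LFD mouse 3, 1 without HFD mouse 2 or HFD mouse 3, 0 without LFD mouse 4 or HFD mouse 4, and 8 without HFD MTX50 mouse 5, which enters through the shared spread. Treating the slide as a random block left 0 members called in limma, where 6 members were higher and 1 lower at an unadjusted p below 0.05 without the block. The split of 3 higher and 1 lower was 5 and 0 after quantile normalization and 0 and 1 after median scaling.

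The second comparison asks what MTX50 did on the low fat diet. In treated LFD livers 14 of 42 members fell (33.3%), 1 rose (2.38%) and 27 did not pass, against 10.5% of all genes lower and 17.6% higher. Treating the slide as a random block, with an estimated correlation, left 2 members called, Acaa1b (adjusted p = 0.0498) and Nudt7 (adjusted p = 0.0489). Those that fell were 1 of 5 genes of the carnitine shuttle, 1 of 6 acyl-CoA dehydrogenases, 1 of 5 for hydration to thiolysis, 2 of 4 isomerases and reductases for unsaturated chains, 2 of 3 of electron transfer, 5 of 12 peroxisomal genes, Pdk4 and Vnn1. Negative differences were found in 32 members, and the median was -0.333, whereas over all genes it was 0.105. In 11 members (26.2%) the LFD and LFD MTX50 livers did not overlap, a smaller share than the 29.1% of all genes.

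The largest fall was that of Nudt7, a peroxisomal diphosphatase that breaks down coenzyme A and its esters. Nudt7 stood at 5.18, 5.48, 5.14 and 5.42 in LFD and at 2.39, 2.71, 2.24, 3.59 and 1.22 in LFD MTX50. It fell by 2.88 ± 0.58 (SE, adjusted p = 0.00407), or 7.34-fold, with no overlap. Its dimmer probe gave -1.88 (adjusted p = 0.0637).

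Acaa1b, one of the paired peroxisomal thiolases that end each peroxisomal round, went from 4.49, 4.48, 4.58 and 4.00 in LFD to 1.51, 2.31, 2.84, 3.03 and 0.82 in LFD MTX50. Every treated liver lay below every untreated liver, and the fall was 2.28 ± 0.43 (SE, adjusted p = 0.00308), or 4.86-fold. Acaa1a, its close copy on the same chromosome, fell by 0.51 ± 0.16 (SE, adjusted p = 0.0309). The probes of such close copies may read each other's RNA, and the array cannot say how much.

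Among the other peroxisomal genes, Hsd17b4, the D-bifunctional enzyme that hydrates and dehydrogenates straight and branched chains, fell by 0.60 (adjusted p = 0.00987). Crot, which makes octanoylcarnitine for export from peroxisomes, lay at 4.47, 4.35, 4.18 and 4.06 in LFD and at 3.01, 3.54, 4.31, 3.64 and 1.74 in LFD MTX50. It fell by 1.02 ± 0.37 (SE, adjusted p = 0.0467), though LFD MTX50 mouse 3 stayed inside the LFD range. Ehhadh, the L-bifunctional enzyme, was at 2.64 to 3.15 in LFD and 1.20 to 2.62 in LFD MTX50, and its difference of -0.94 did not pass (adjusted p = 0.0659). Acox2, the branched-chain oxidase, and Pex11a had differences of 0.22 and 0.17, and did not pass either (adjusted p = 0.146 and 0.677).

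In the carnitine shuttle Cpt2, which turns acylcarnitines back into acyl-CoA at the inner membrane, was the member that fell. Its levels were 3.94, 3.85, 3.59 and 3.64 in LFD and 2.53, 2.94, 3.28, 3.11 and 2.75 in LFD MTX50, without overlap, and the fall was 0.83 ± 0.16 (SE, adjusted p = 0.00371). The dimmer Cpt2 probe gave -0.37 (adjusted p = 0.178). Cpt1a, the step before it, had a difference of -0.09 (95% interval -0.49 to 0.32, adjusted p = 0.754).

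Of the acyl-CoA dehydrogenases, Acads, the short-chain enzyme, fell by 0.40 (adjusted p = 0.0277), from -1.10, -0.85, -0.91 and -1.09 in LFD to -1.50, -1.27, -1.08, -1.39 and -1.69 in LFD MTX50. LFD MTX50 mouse 3 was the treated liver that overlapped. Acadvl, Acadl, Acadm, Acad10 and Acad11 had differences between -0.35 and 0.05 and did not pass. The first 3 of these serve very long, long and medium chains.

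Hadhb lay at 4.10, 4.28, 4.23 and 4.14 in LFD and at 3.53, 3.73, 4.15, 3.61 and 3.66 in LFD MTX50, a fall of 0.45 ± 0.15 (SE, adjusted p = 0.0374), with LFD MTX50 mouse 3 again inside the LFD range. Hadha, its partner across the shared sequence, had a difference of 0.02 (95% interval -0.29 to 0.33, adjusted p = 0.919). Eci1, the isomerase that shifts the double bond of unsaturated chains, went from 2.89, 3.24, 3.16 and 2.79 to 2.03, 2.19, 2.77, 2.24 and 1.78 and fell by 0.82 ± 0.20 (SE, adjusted p = 0.00992), without overlap. Decr1, the mitochondrial dienoyl-CoA reductase for the same kind of chain, fell by 0.57 (adjusted p = 0.0191), and by 1.16 on its dimmer probe (adjusted p = 0.00282).

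Of the 3 genes of electron transfer 2 fell. Etfdh, which passes the electrons on to ubiquinone, went from 4.43, 4.63, 4.45 and 4.45 in LFD to 3.48, 3.83, 4.11, 3.90 and 3.78 in LFD MTX50, a fall of 0.67 ± 0.13 (SE, adjusted p = 0.00356). Etfa went to 3.35, 3.38, 3.33, 3.42 and 3.21, a fall of 0.40 ± 0.11 (SE, adjusted p = 0.0174) that brought it to the range of the HFD livers. Neither gene overlapped between the groups. Etfb, the partner subunit of Etfa, had a difference of -0.18 (adjusted p = 0.178) on the brightest of its 3 probes.

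Vnn1 and Pdk4 stand outside the chain itself. Vnn1 was at -0.32, 0.38, 0.27 and -0.78 in LFD and at -2.35, -1.91, -1.11, -1.93 and -2.79 in LFD MTX50, a fall of 1.91 ± 0.43 (SE, adjusted p = 0.00676), or 3.75-fold, without overlap. Vnn3, the other vanin, had a difference of -0.10 (adjusted p = 0.822). Pdk4 was at -0.21, -1.95, -0.59 and 0.07 in LFD and at -2.43, -1.68, -1.64, -1.90 and -2.10 in LFD MTX50. It fell by 1.28 ± 0.44 (SE, adjusted p = 0.0387), while LFD mouse 2 was as low as the treated livers.

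Acot12, a cytosolic thioesterase that cleaves acetyl-CoA, was the member that rose. Its levels were 0.79, 0.95, 0.59 and 0.49 in LFD and 0.89, 1.40, 1.50, 1.23 and 1.03 in LFD MTX50, so that 4 of 5 treated livers were above all LFD livers, and the rise was 0.51 ± 0.17 (SE, adjusted p = 0.0372). Acot1 was the most variable member of the treated groups. It lay at 1.29 to 1.89 in LFD but at -1.48, 0.77, 2.44, 0.75 and 0.13 in LFD MTX50, and its difference of -1.18 did not pass (adjusted p = 0.257). The dimmer probe of Acot3 opposed the brightest, with 1.99 (adjusted p = 0.0474) against -0.19 (adjusted p = 0.319). Acot1, Acot2, Acot3 and Acot4 are close copies in 1 cluster, and their values are uncertain for that reason.

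**Figure D2:**
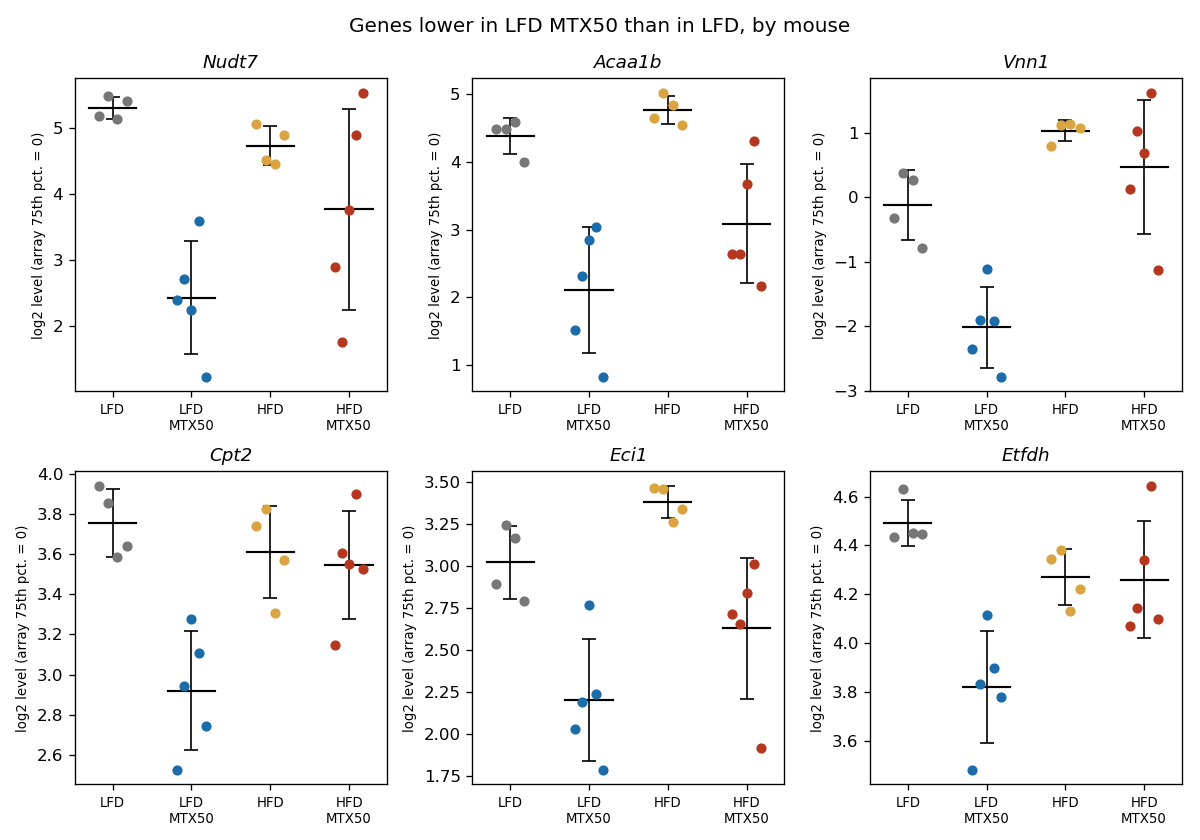
Level of Nudt7, Acaa1b, Vnn1, Cpt2, Eci1 and Etfdh in each liver, as log2 intensity with the array's 75th percentile at 0, in the 4 groups, where points are mice, long bars are group means and whiskers are ± 1 SD. In each panel the 5 LFD MTX50 livers lie below the 4 LFD livers, while the HFD MTX50 livers overlap the HFD livers except for Acaa1b and Eci1.

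When each mouse was left out in turn, 8 of the 15 calls held in every fit: Nudt7, Acaa1b, Vnn1, Cpt2, Eci1, Etfdh, Etfa and Hsd17b4. The weakest was Crot, called in 5 of 18 fits, followed by Hadhb in 10, Pdk4 in 11, Acot12 in 12, Acaa1a in 13, Acads in 14 and Decr1 in 17. The count of members was 9 without LFD mouse 3. Quantile normalization gave 2 higher and 9 lower. Erythroid markers moved with this comparison: 4 of the 5 were tested, 3 of them fell, and their summed intensity was 16.6 to 23.8 times the 75th percentile in LFD against 1.03 to 1.58 in LFD MTX50. The hepatocyte sum was 771 to 924 and 863 to 992 in the same groups, and the neutrophil sum 0.996 to 1.31 and 1.08 to 6.9. Of 5 adipocyte markers 3 rose, with a sum of 0.362 to 0.526 in LFD and 0.482 to 0.841 in LFD MTX50. Of 5 skeletal muscle markers 2 rose, where 17.6% of all genes were higher and 10.5% lower. Each other marker list had at most 1 call. The part of these marker changes in the result was not tested, and in whole tissue fewer cells of a type and less RNA per cell cannot be told apart.

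The third comparison asks what MTX50 did on the high fat diet. Fewer members passed: 4 of 42 fell (9.52%) and 0 rose, against 6.12% of all genes lower and 4.81% higher. At an unadjusted p below 0.05 limma had 9 members lower and 0 higher. Negative differences were found in 33 members, with a median of -0.22, against -0.0401 over all genes. Without HFD MTX50 mouse 5 no member passed, 25 members were negative and 17 positive, and the median was -0.0698, against -0.0354 over all genes. The genes that fell were Acaa1b, Eci1, Acads and Hadh.

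Acaa1b was at 4.65, 5.02, 4.84 and 4.55 in HFD and at 2.64, 2.64, 3.68, 4.31 and 2.17 in HFD MTX50, a fall of 1.68 ± 0.43 (SE, adjusted p = 0.0257), or 3.2-fold. Eci1 was at 3.46, 3.46, 3.26 and 3.34 in HFD and at 2.71, 2.66, 2.84, 3.01 and 1.92 in HFD MTX50, a fall of 0.75 ± 0.20 (SE, adjusted p = 0.0294). For both genes no treated liver reached the HFD range. They are also members that fell on the low fat diet, by 2.28 and 0.82.

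Acads went from -0.92, -0.63, -0.80 and -0.54 in HFD to -1.03, -1.25, -1.11, -1.17 and -1.44 in HFD MTX50 and fell by 0.48 ± 0.13 (SE, adjusted p = 0.0264). Hadh went to 3.57, 3.33, 3.71, 3.79 and 3.39 in HFD MTX50 and fell by 0.36 ± 0.10 (SE, adjusted p = 0.0362), the same size as its rise with diet. The rise and the fall of Hadh share the same HFD livers, so they are not independent. Without HFD mouse 2 neither passed in limma (adjusted p = 0.0636 and 0.0979). Neither Acads nor Hadh overlapped between HFD and HFD MTX50. In all, 7 members (16.7%) had HFD and HFD MTX50 livers that did not overlap, against 11.4% of all genes. The LFD livers held 3.46 to 3.60 of Hadh, a range that treated HFD livers straddled.

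On the slide that both HFD groups share, with 2 mice each, the differences were -2.06 for Acaa1b, -0.62 for Eci1, -0.47 for Acads and -0.42 for Hadh, all in the direction of the full comparison. Fitting the slide as a fixed block kept Acaa1b called, while the adjusted p was 0.226 for Eci1, 0.109 for Acads and 0.0873 for Hadh. The count was 0 without HFD mouse 2, HFD mouse 3, HFD mouse 4 or HFD MTX50 mouse 5, with adjusted p of 0.0552 to 0.1 in those 4 fits, and it was also 0 where HFD and HFD MTX50 were fitted without the LFD groups. Neutrophil markers were high in part of the treated livers, with a summed intensity of 1.02 to 2.08 times the 75th percentile in HFD and 1.17 to 49.5 in HFD MTX50, and the 7 Kupffer cell and macrophage markers summed to 21.3 to 39.3 and 40.4 to 52.4. The adipocyte sum was 4.16 to 6.68 in HFD and 0.627 to 1.59 in HFD MTX50, without overlap, though of its 5 genes 1 fell (Cfd, 39.8-fold) and 1 rose (Adipoq), and the erythroid sum was 11 to 24 and 1.37 to 58.7. Their part in these falls was not tested.

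Nudt7 and Vnn1, which fell deeply on the low fat diet, did not pass here and had wide treated groups. Nudt7 was at 5.06, 4.53, 4.46 and 4.90 in HFD and at 2.89, 1.75, 3.76, 4.89 and 5.54 in HFD MTX50, so that mouse 5 was above and mouse 2 far below all HFD livers (difference -0.97, adjusted p = 0.263). Vnn1 was at 0.79, 1.13, 1.14 and 1.07 in HFD and at 0.14, 1.04, 0.69, 1.63 and -1.13 in HFD MTX50 (difference -0.56, adjusted p = 0.387). On the slide that both HFD groups share, the differences were -2.36 for Nudt7 and -0.52 for Vnn1. Over 14 processing alternatives Nudt7 was called in 1 (limma adjusted p = 0.0198) and Vnn1 in 0. Acot1, which passed on neither diet, ran from -0.98 to 3.47 in HFD MTX50, with an SD of 1.89, the largest of any member in any group. The median SD of the members was 0.328 in HFD MTX50 and 0.254 in LFD MTX50, against 0.165 in HFD and 0.151 in LFD, and over all genes the same medians were 0.275, 0.222, 0.182 and 0.145. Without mouse 5 the HFD MTX50 medians were 0.255 for the members and 0.244 for all genes, and the SD of Acot1 was 1.48.

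**Figure D3:**
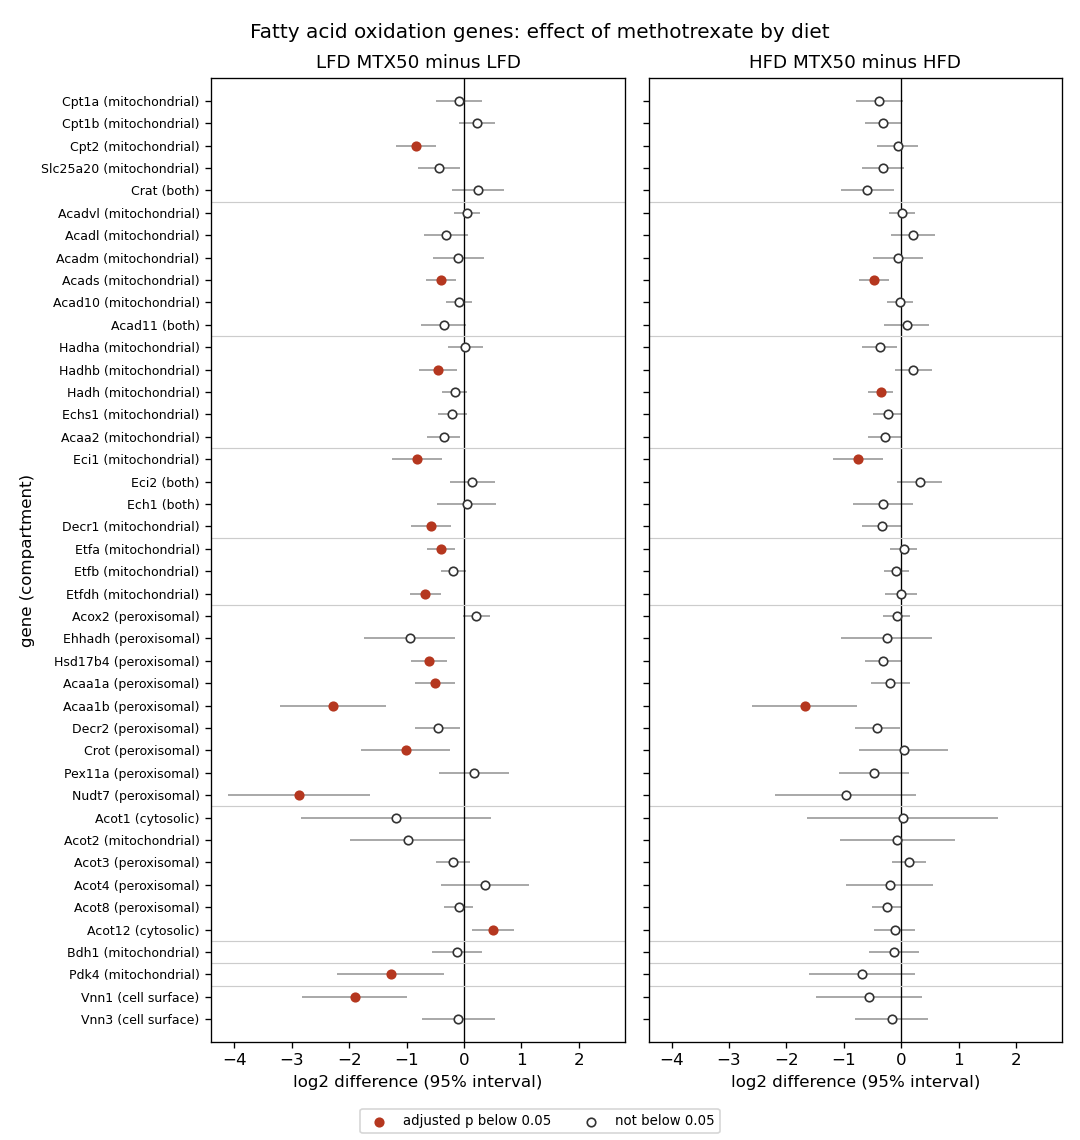
Difference between treated and untreated livers for all 42 members, as log2 with its 95% interval, on the low fat diet (left) and the high fat diet (right). Genes are ordered by role with the compartment of the product beside the name, and filled points passed at an adjusted p below 0.05, which 15 members did on the left and 4 on the right.

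Whether MTX50 acted differently on the diets was tested by the difference between its effects, HFD MTX50 minus HFD less LFD MTX50 minus LFD. It passed for 4 of 42 members (9.52%), against 26.7% of all genes. All 4 were mitochondrial and positive, which means that the treated livers lay lower against their controls on the low fat diet than on the high fat diet: Cpt2 at 0.77 ± 0.23, Hadhb at 0.66 ± 0.22, Etfdh at 0.66 ± 0.19 and Etfa at 0.45 ± 0.16 (SE), with adjusted p of 0.0245, 0.0334, 0.018 and 0.0487. At an unadjusted p below 0.05 limma had 6 members positive and 3 negative. The negative ones were Crat (-0.83, adjusted p = 0.0528), Acot12 (-0.62, adjusted p = 0.0638) and Cpt1b (-0.54, adjusted p = 0.0634).

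Cpt2 was at 3.74, 3.83, 3.31 and 3.57 in HFD and at 3.15, 3.61, 3.55, 3.90 and 3.52 in HFD MTX50, so the groups overlapped throughout. Hadhb was at 4.18, 4.11, 3.89 and 3.94 in HFD and at 4.41, 4.31, 4.46, 4.36 and 3.67 in HFD MTX50, where mouse 5 was the liver below the HFD range and the other 4 were above it. Etfdh was at 4.34, 4.38, 4.13 and 4.22 in HFD and at 4.07, 4.14, 4.34, 4.64 and 4.10 in HFD MTX50. Etfa was at 3.76, 3.06, 3.43, 3.48 and 3.19 in HFD MTX50, around the HFD level.

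Peroxisomal members had 0 calls of this kind in limma, with 1 (Nudt7) at an unadjusted p below 0.05. Nudt7 had the largest difference between the diets, 1.91 (95% interval 0.17 to 3.65, adjusted p = 0.0903), and for Acaa1b it was 0.60 (95% interval -0.69 to 1.90, adjusted p = 0.474). The count of 4 was 2 without LFD mouse 2, LFD mouse 3, HFD MTX50 mouse 3 or HFD MTX50 mouse 4, 1 without HFD mouse 3 or HFD mouse 4, 8 without HFD MTX50 mouse 2 or HFD MTX50 mouse 5, and 0 where the slide was a random block. After quantile normalization 0 were positive and 2 negative. Etfdh was called in every fit that left out 1 mouse, and Etfa in 4 of 18. The dimmer probes of Cpt2 and Etfa gave -0.27 (adjusted p = 0.501) and 0.10 (adjusted p = 0.716).

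Averaged over the genes of a compartment, the mice of a treated group differed widely. Over the 22 mitochondrial genes, as a difference from the LFD mean, LFD MTX50 mice 1 to 5 stood at -0.58, -0.33, -0.08, -0.38 and -0.48, and HFD MTX50 mice at -0.01, -0.06, -0.08, 0.04 and -0.60. LFD MTX50 mouse 3 was inside the LFD range of -0.10 to 0.07, and HFD MTX50 mouse 5 was as low as the lowest LFD MTX50 livers. Over the 12 peroxisomal genes the same mice stood at -0.91, -0.58, -0.29, -0.49 and -1.15, and at -0.52, -0.43, -0.11, 0.16 and -0.68, with all 5 LFD MTX50 livers below the LFD range of -0.16 to 0.12.

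Group means over the mitochondrial genes were -0.37 ± 0.19 (SD, n = 5) in LFD MTX50, 0.06 ± 0.07 (SD, n = 4) in HFD and -0.14 ± 0.26 (SD, n = 5) in HFD MTX50. Over the peroxisomal genes they were -0.69 ± 0.34 (SD, n = 5), 0.07 ± 0.09 (SD, n = 4) and -0.32 ± 0.34 (SD, n = 5). Without mouse 5 the HFD MTX50 means were -0.03 ± 0.05 and -0.23 ± 0.31 (SD, n = 4). These means have no test, since the members were chosen with earlier results of these data known.

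**Figure D4:**
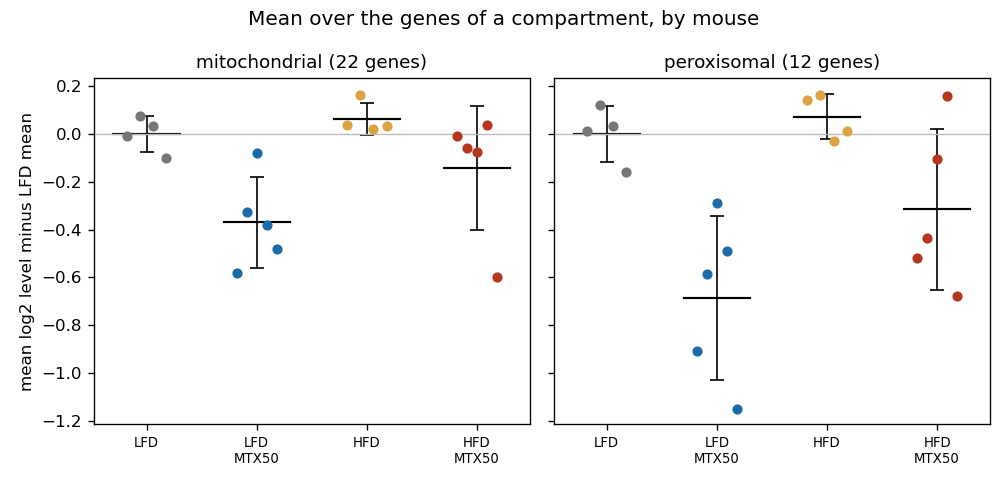
Mean log2 level over the 22 mitochondrial (left) and 12 peroxisomal (right) genes in each liver, as the difference from the LFD mean, where points are mice, long bars are group means and whiskers are ± 1 SD. LFD MTX50 livers lie lowest as a group on both sides, and HFD MTX50 mouse 5 stands apart from the other 4 on the left.

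Of 24 other targets of PPARα, outside the list, 10 fell, 0 rose and 14 did not pass in LFD MTX50 (median -0.655), where 10.5% of all genes were lower. In HFD MTX50 6 fell, 0 rose and 18 did not pass (median -0.281), against 6.12% of all genes lower. Without HFD MTX50 mouse 5 that count was 4 lower and 2 higher, the latter being Cyp4a14 and Abcd2, and the median was -0.0445. In HFD against LFD 3 were higher and 2 lower, against 18% and 10.4% of all genes. The largest falls in LFD MTX50 were those of Cyp4a12a (-4.13, adjusted p = 6.62e-05) and Cyp4a12b (-3.66, adjusted p = 3.29e-05), fatty acid hydroxylases that are close copies, G0s2 (-1.80), an inhibitor of triglyceride lipolysis, Plin2 (-1.27), a lipid droplet coat protein, and Abcd3 (-1.16), a peroxisomal fatty acid carrier. The other Cyp4a genes of the list did not pass in LFD MTX50. Cyp4a10 had -0.74 (adjusted p = 0.107), Cyp4a14 0.66 (adjusted p = 0.427), Cyp4a31 -0.67 (adjusted p = 0.243) and Cyp4a32 -0.83 (adjusted p = 0.319). In HFD MTX50, Cyp4a12a, Cyp4a12b, G0s2 and Abcd3 fell by 1.74, 1.40, 1.93 and 0.62, of which Abcd3 did not pass without mouse 5 (adjusted p = 0.0657). Cd36, a fatty acid transporter, was the target most raised by the diet (1.48, adjusted p = 0.00628).

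The receptor and its partners gave a mixed picture over 17 genes. Ppara itself had differences of 0.04 with diet, -0.28 with MTX50 in LFD and 0.07 with MTX50 in HFD, none of which passed (adjusted p = 0.876, 0.151 and 0.77). In HFD against LFD 2 regulators were higher and 6 lower, against 18% and 10.4% of all genes. Among them were Ppargc1a, a coactivator of oxidative metabolism (-1.20, adjusted p = 0.00528), and Pparg, the adipogenic receptor (0.72, adjusted p = 0.0043). In HFD MTX50 both went the other way, Ppargc1a by 0.76 (adjusted p = 0.0482, and 0.0899 without mouse 5) and Pparg by -0.70 (adjusted p = 0.00903). In LFD MTX50 2 rose and 5 fell, against 17.6% and 10.5% of all genes. The largest change was that of Lpin1, a coactivator and phosphatidate phosphatase (3.20, adjusted p = 0.000589).

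Of 22 peroxisome assembly and alpha-oxidation genes, 9 fell and 1 rose in LFD MTX50, with Amacr (-0.82), Cat (-0.73) and Phyh (-0.61) at the head. In HFD MTX50 3 fell, led by Pex16 (-0.66). Over all genes 10.5% were lower and 17.6% higher in LFD MTX50, and 6.12% were lower in HFD MTX50. Of 7 ketone body genes, 2 fell in LFD MTX50, the transporters Slc16a1 (-1.43, adjusted p = 0.00655) and Slc16a7 (-0.43, adjusted p = 0.0101). Bdh1, the member that makes hydroxybutyrate, had -0.12 (adjusted p = 0.683) on its brightest probe. Its other probes gave -0.67 (adjusted p = 0.0988) and -0.81 (adjusted p = 0.0521). Among the 3 genes that set malonyl-CoA, the brake on Cpt1a, 2 fell in LFD MTX50: Acacb (-1.74, adjusted p = 0.026) and Mlycd (-0.50, adjusted p = 0.0221). In HFD MTX50 0 of the 3 passed, whereas Acacb passed without HFD MTX50 mouse 5 (-1.82, adjusted p = 0.046). Acaca was lower in HFD than in LFD (-1.29, adjusted p = 0.0194).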

How the data were processed

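The deposited files hold spot intensities, not log-transformed. Per the file headers and the submitters' processing notes, the authors ran Agilent Feature Extraction 10.7.3.1, whose processed signal is corrected for background and detrended on its own array, with no scaling between arrays. The sample records name a linear amplification kit for low RNA input, the methods the Quick Amp kit. The study used GeneSpring, and its scaling of the arrays is not given in the sources used here.

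Each log2 processed signal was expressed relative to the 75th percentile of its array. Control spots were dropped, as were 124 to 294 spots per array that the software marks as outliers, no filter on saturation was needed, and replicate spots were averaged by probe. Of 39429 probes, 35746 were kept for being well above background on at least 4 arrays. RefSeq names on GRCm38.p6 matched 28025 probes (71.1%). Since the array design follows an older build than this table, coordinates appear for the printed promoters alone. One model of 4 groups was fitted with limma 3.58.1 in R 4.3.3 on all kept probes, with Benjamini-Hochberg adjustment, and was tested on simulated data. With 4 or 5 arrays per group, their number limits the precision.

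Members, lists of related genes and tests were chosen with earlier results of these data known. By rule, values per mouse are given for the 6 largest rises and 6 largest falls among members called in each comparison and for members whose treatment effect depended on diet, other members are given by counts and ranges, and at most 5 genes are named per related list. Values of single members in comparisons where they were not called were added after they were seen. So were those of Ppara and of the Cyp4a genes that did not pass. Some genes of the related lists are counted there but not reported here by name. Replicate numbers were not used as pairs: deviations of same-numbered mice correlated between -0.313 and 0.254, over 0.1 in 6 of 25 pairs. The files have no mean spot signal, so normexp, an alternative, used the median signal and median background (offset 50). The other alternatives were quantile normalization, median scaling, the deposited series table (background-subtracted intensities, rounded), other probe filters, keeping outlier spots, an intensity trend, the compared groups alone, slide and replicate blocks, the mean of a gene's probes, a 2-fold threshold, the t-test that the methods name for other measurements, called the methods' t-test, and leaving out each mouse.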

Additional observations from a re-analysis of the deposited data

Results flagged for a closer look

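The 84 sets of mice examined were, in each group, the members called in any comparison and the averages over all members and over compartments. Of these, 4 held a mouse far from the rest by Dixon's criterion, where chance alone marks about 1 set in 20. Hadhb was at 3.67 in HFD MTX50 mouse 5, with the other 4 between 4.31 and 4.46. Etfdh was at 4.63 in LFD mouse 2, with the others at 4.43 to 4.45. The average over mitochondrial genes, as a difference from the LFD mean, was 0.16 in HFD mouse 2, with the others at 0.02 to 0.04, and -0.60 in HFD MTX50 mouse 5, with the others at -0.08 to 0.04.

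For 4 members the MTX50 effect differed between the diets by limma's interaction test: Cpt2 by 0.77, Hadhb by 0.66, Etfa by 0.45 and Etfdh by 0.66, each higher on the high fat diet, with the adjusted p given above.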

How the results depend on the processing

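The 27 differences called for single members kept their direction under every alternative, whereas some that did not pass changed sign, among them those of Cpt1a, Hadha, Acadvl, Pex11a, Vnn3 and Acot3 in LFD MTX50. The counts moved as follows, in the order diet, MTX50 on the high fat diet, MTX50 on the low fat diet and dependence on diet, from 4, 4, 15 and 4. Normexp background gave 0, 0, 3 and 0 and shifted the median of all probes to 0.54 and 0.666 in the comparisons with LFD, from 0.125 and 0.164, and to 0.518 in HFD MTX50 against HFD, from -0.0618. The 2-fold threshold gave 0, 1, 5 and 0, and the slide as a random block 0, 3, 2 and 0. Quantile normalization gave 5 higher and 0 lower for diet, 9 lower in HFD MTX50, 2 higher and 9 lower in LFD MTX50, and 2 negative for dependence on diet, none of them among the 4 reported. Median scaling gave 1 lower for diet and 18 lower in LFD MTX50. The compared groups alone gave 13 for diet and 0 in HFD MTX50, the methods' t-test with adjustment 12 and 0 (17, 7 and 22 for diet and the MTX50 comparisons at its own unadjusted threshold), and the slide as a fixed block 2 in HFD MTX50. The mean of a gene's probes gave 2 for dependence on diet. The replicate block gave 6, 3, 11 and 8 members. Leaving out 1 mouse gave 0 to 8, 0 to 5, 9 to 18 and 1 to 8. The causes were not tested.

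The members' median stayed negative in both MTX50 comparisons under every setting, but in HFD MTX50 it shrank from -0.22 to -0.0698 without HFD MTX50 mouse 5 and to -0.136 with the replicate block. For diet it was 0.0145 but -0.153 with normexp and -0.0809 with median scaling, and for dependence on diet it was 0.0844 but -0.138 with quantile normalization and 0.253 without HFD MTX50 mouse 5, so neither median has a settled sign. The brightest probe of every member lay well above background on every array, yet normexp background lowered the counts, as given above. The dim Acot2 ran from -1.295 to 0.793 in LFD MTX50 over the alternatives, and Cpt1b from -0.337 to 0.6185 in HFD MTX50.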
